A study of Mus musculus with 4 samples.

Results

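Eosinophil-like cells were 113 of the 63443 cells kept from tumours of Pan02, a pancreatic cancer line of the mouse that was grown under the skin. They were chosen by their own RNA: at least 1 UMI (a counted RNA molecule) of Ccr3 and at least 1 UMI over the 5 genes Prg2, Siglecf, Il5ra, Alox15 and F5. The rule further asked for fewer than 5 UMIs of the mast cell gene Cpa3, 0 UMIs over the T cell receptor complex genes Cd3d, Cd3e and Cd3g, and at most 2 UMIs over the macrophage genes C1qa, C1qb and C1qc. Levels of these genes describe the choice and are no finding.

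The tumours grew in the right flank of female C57BL/6 mice of 6 to 7 weeks, which were put into groups when tumours had reached about 50 mm3. The 4 groups were control with IgG, anti-PD-1 (an antibody that blocks a brake on T cells), anti-LIF (an antibody against leukemia inhibitory factor, a cytokine of the interleukin 6 family) and combo, which received both antibodies. The protocol gives 200 µg of anti-PD-1 per injection with 25 mg/kg of IgG or anti-LIF, 3 times a week. Material of 3 samples was combined into 1 library per group, so animals cannot be told apart. No difference between groups was therefore tested, and intervals in brackets are 95% intervals that cover counting error only.

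Eosinophils are granulocytes of the bone marrow that depend on interleukin 5 for growth and survival. They follow the eotaxins Ccl11 and Ccl24 into tissues through the receptor Ccr3, and they store toxic proteins such as eosinophil peroxidase (Epx) and major basic protein (Prg2) in granules. Mature eosinophils carry little RNA, and much of the granule protein is made earlier, in bone marrow precursors. In tumours they are known both for recruiting T cells and for tissue repair programmes.

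The transcription factor Gata1, which drives the eosinophil lineage, binds GATA motifs. The promoters of the gene that admitted every cell, Ccr3, and of the interleukin 5 receptor gene, Il5ra, are shown because each has the motif AGATAA close to the start site. The promoters of Siglecf and F5, also genes of the rule, hold no such match and are not shown. They are the 250 bases before the RefSeq start in build GRCm38.p6 (mm10), written 5′ to 3′ on the gene's strand, with the motif in capitals. The Ccr3 window is chr9:124021721-124021970 on the plus strand and the Il5ra window is chr6:106749038-106749287 on the minus strand.
Ccr3: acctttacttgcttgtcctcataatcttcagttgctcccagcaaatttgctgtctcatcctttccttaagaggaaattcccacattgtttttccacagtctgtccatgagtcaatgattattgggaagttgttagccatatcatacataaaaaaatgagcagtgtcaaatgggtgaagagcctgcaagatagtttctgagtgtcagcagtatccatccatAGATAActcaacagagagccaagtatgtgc
Il5ra: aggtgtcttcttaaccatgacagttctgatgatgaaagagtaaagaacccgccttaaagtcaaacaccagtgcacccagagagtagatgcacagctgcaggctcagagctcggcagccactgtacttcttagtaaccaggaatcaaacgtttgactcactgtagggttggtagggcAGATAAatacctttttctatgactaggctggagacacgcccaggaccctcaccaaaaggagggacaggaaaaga
In Ccr3, 24 bases lie between the motif and the start, and in Il5ra 68 bases. Counting both strands, AGATAA stood in 11.4% of 27025 promoters of this length. Of the 25 genes that led in the eosinophil-like cells, 19 had a promoter in the table and 3 of those held the motif (Ccr3, Serpinb2 and Pglyrp1), or 15.8%. A match of letters is a description and not a binding site.

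Eosinophil-like cells made up a larger share of the libraries with anti-LIF than of the others. There were 2 among 18640 kept cells in control (0.0107% [0.00130, 0.0388]) and 6 among 14392 in anti-PD-1 (0.0417% [0.0153, 0.0907]). There were 34 among 14014 in anti-LIF (0.243% [0.168, 0.339]) and 71 among 16397 in combo (0.433% [0.338, 0.546]). The interval of anti-LIF overlapped neither that of control nor that of anti-PD-1, while those of control and anti-PD-1 overlapped each other. The share in combo was 1.78 [1.17, 2.77] times that in anti-LIF and 10.4 [4.54, 29.3] times that in anti-PD-1. Against control the ratio was 22.6 [5.80, 194] for anti-LIF, 40.4 [10.8, 340] for combo and 3.89 [0.695, 39.4] for anti-PD-1, all 3 against the same 2 control cells.

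**Figure D1:**
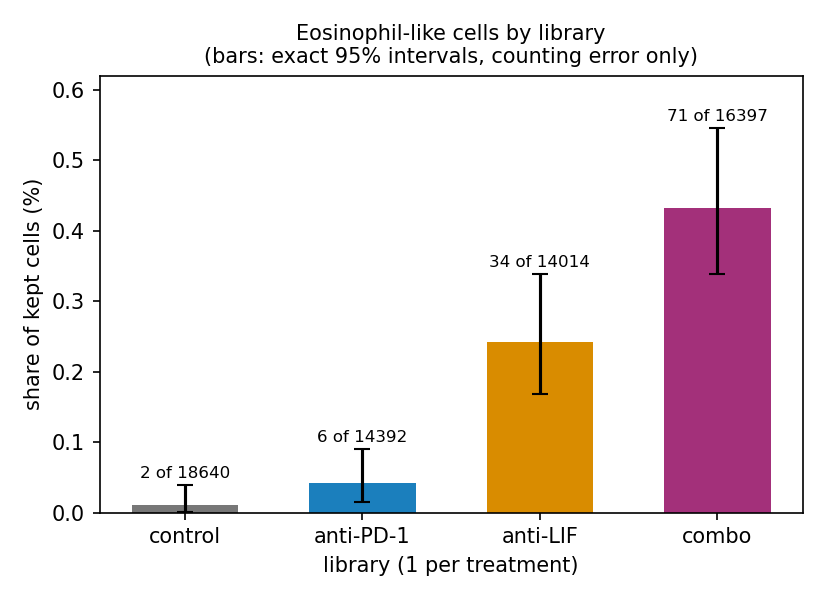
Share of kept cells that were eosinophil-like (percent, vertical axis) in the 4 libraries, with exact 95% intervals for counting error and the numbers of cells. The combo library is highest at 0.433% and control lowest at 0.0107%.

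Depth and the lowest UMI count of the deposited barcodes differed between libraries and stand beside these shares. The lowest was 623 UMIs in control and 500 in the other 3, and many eosinophil-like cells lay just above it: 27 of 113 had 500 to 600 UMIs. With the control minimum applied to all libraries, 50 eosinophil-like cells were left in combo, 22 in anti-LIF, 5 in anti-PD-1 and 2 in control, or 0.335%, 0.177%, 0.0391% and 0.0107%. The order of the libraries was the same. The median UMI count of kept cells, at 2288, 1674.5, 1731 and 2171 in that sequence, did not follow it. With at least 2 UMIs of Ccr3 required, 23, 6, 2 and 0 cells were left. The 0 of 18640 cells in control allows a share of up to 0.0161%. As a share of cells with a UMI of Ptprc, the gene of the leukocyte antigen CD45, eosinophil-like cells were at 0.857% in combo, 0.586% in anti-LIF, 0.0388% in anti-PD-1 and 0.0141% in control. Ptprc itself was found in 44, 25, 2 and 1 of them.

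Ccr3 RNA outside these cells was rare, and its share followed the order of libraries in T-like cells but not in neutrophil-like cells. A Ccr3 UMI was found in 2.08% of T-like cells in combo, in 1.49% of those in anti-LIF, and in 0.674% and 0.418% with anti-PD-1 alone and in control. In macrophage-like cells the shares were 0.941%, 0.631%, 0.175% and 0.204%. Neutrophil-like cells had Ccr3 most often in control, in 7 of 416 cells (1.68%), against 2 of 457 in anti-PD-1, 0 of 145 in anti-LIF, which allows up to 2.07%, and 2 of 269 in combo (0.743%). F5 was in 10.6% of the neutrophil-like cells of control. T-like cells had a median of 1662.5 UMIs. Whether their Ccr3 UMIs came from free RNA, from a second cell or from the T-like cells themselves was not tested. For the second condition, 0.307% of T-like cells in combo had Alox15 and 1.15% had F5. The eosinophil-like cells had to meet both conditions at once, and the part of background in their number was not tested. Between 277 and 392 barcodes were shared by each pair of libraries, and 0 of them were eosinophil-like in both.

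By RNA content the eosinophil-like cells were of 2 kinds. A total of 106 had 501 to 1878 UMIs, with a median of 693.5, and the other 7 had 4143 to 22221 UMIs. The 7 held 52.1% of all UMIs of the eosinophil-like cells, so summed levels rest on them in large part. Of these, 2 came from combo, 3 from anti-LIF and 1 each from the other libraries. None of the 7 had a UMI of Siglecf or Il5ra, and each had 1 UMI of Ccr3. They carried genes of other cell types: an anti-LIF cell of 12429 UMIs had 459 UMIs of the collagen gene Col1a1, a combo cell of 4143 UMIs had 10 of the endothelial gene Pecam1, and a combo cell of 22221 UMIs had 26 of the keratin gene Krt18 and 121 of fibronectin (Fn1). No doublet caller was run, and whether such barcodes hold more than 1 cell was not tested. Values below are for the 106 cells with at most 2000 UMIs, a limit set after the data were seen, unless all 113 are named. Those 106 were 69 cells in combo, 31 in anti-LIF, 5 in anti-PD-1 and 1 in control. Their shares kept the order of libraries, at 0.421%, 0.221%, 0.0347% and 0.00536%.

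**Figure D2:**
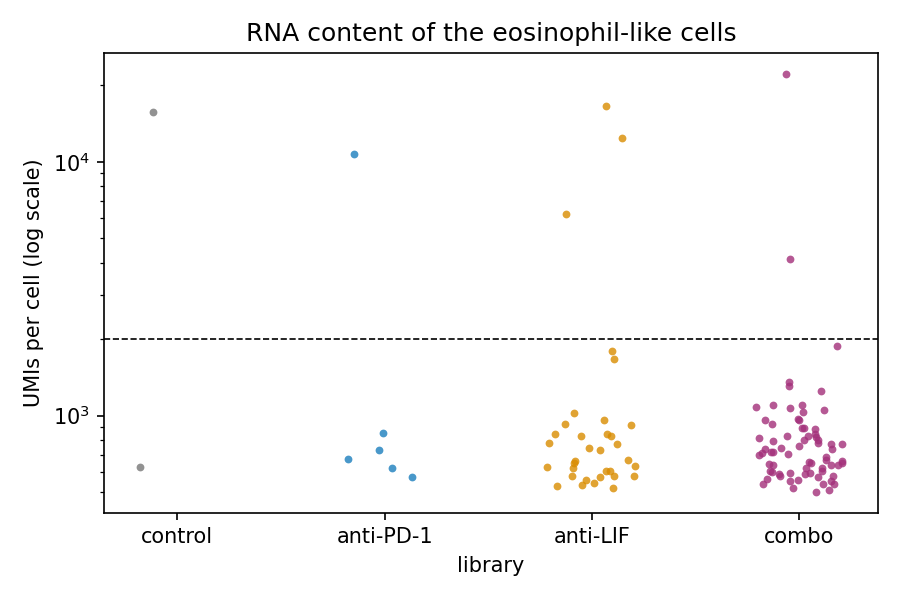
UMIs per eosinophil-like cell (log scale, vertical axis) by library, 1 point per cell, with a dashed line at 2000 UMIs. Most cells lie between 501 and 1878 UMIs, and 7 cells with 4143 to 22221 UMIs stand above the line.

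The genes of the rule were met mostly by Ccr3 with F5 or Alox15. Of all 113 cells, 82 had a single Ccr3 UMI and 31 had 2 or 3. F5, the gene of coagulation factor V (chr1:164151838-164220277), was found in 99 cells and Alox15, a lipoxygenase gene of eosinophils (chr11:70344152-70352031), in 71. Siglecf, the inhibitory lectin that defines mouse eosinophils by flow cytometry (chr7:43351341-43359531), was found in 19. Prg2 (chr2:84980461-84983632) was found in 9 and Il5ra (chr6:106710357-106749037) in 5. These positions are the GENCODE M21 gene bounds on mm10, and Ccr3 lies at chr9:124021972-124031689. Of the 5 genes, 46 cells had 1, 48 had 2, 15 had 3 and 4 had 4.

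Ccl6, a chemokine gene that the rule did not use, was high inside the rule and also in low-RNA cells just outside it. In the 75 cells with 1 Ccr3 UMI and at most 2000 UMIs, Ccl6 was at 6249 CPM (its UMIs per 1000000 UMIs summed over the cells), and in the 31 with 2 or more at 7045 CPM. With the 7 large cells, each of which had 1 Ccr3 UMI, the first value was 2520 CPM. Outside, 173 cells of at most 2000 UMIs had at least 3 UMIs of the 5 genes but no Ccr3, and in these Ccl6 was at 4513 CPM. They were 115 cells in combo, 31 in anti-LIF, 17 in anti-PD-1 and 10 in control, the order of the eosinophil-like cells. Another 29 cells of at most 2000 UMIs had Ccr3 but none of the 5 genes, with Ccl6 at 1233 CPM. Retnlg, a resistin-like gene of granulocytes, was at 4327 and 4828 CPM inside, and at 3554 and 1198 CPM in the same classes outside. Summed over low-RNA cells without Ccr3, Ccl6 and Retnlg were thus found outside the rule as well. These sums do not show whether the same cells held both genes. Neutrophil-like cells were not left out of these classes, and their part was not tested. Over cells of any RNA content the 2 outside classes had 539 and 58 cells, with Ccl6 at 168 and 133 CPM. The first of these rests on control, which gave 262 of the 539 cells, and was 606 CPM without it. The C1q limit alone kept out 16 cells, and the limits on Cd3 and Cpa3 alone kept out 5 and 1.

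The 2 control cells did not look like the rest. Both were admitted through F5 alone, with 0 UMIs of Alox15, Siglecf, Prg2 and Il5ra. The one with low RNA, of 629 UMIs, had 17 UMIs of Il1b, 14 of Cxcl2, 3 of S100a8, 1 of Cxcr2 and 1 of S100a9, and 0 of Ccl6 and Retnlg. Il1b and Cxcl2 are inflammatory cytokine genes, and S100a8, S100a9 and Cxcr2 mark neutrophils. In the other 3 libraries Ccl6 was found in 5 of 5, 29 of 31 and 68 of 69 cells of low RNA. The ratios against control thus rest on 2 cells without Ccl6 and Retnlg.

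The granule genes were nearly silent in the eosinophil-like cells. Of the 9 genes on the granule protein list, Prg3, Epx, Ear1, Ear10, Rnase2a and Rnase2b had 0 UMIs in the 106 cells, where 3 UMIs would have been 37.1 CPM. Prg2 had 16 UMIs in 8 cells, Ear6 had 3 and Ear2 had 1. Just outside the rule, the 173 low-RNA cells without Ccr3 had 355 UMIs of Prg2, a gene that helped choose them. The 31 of those cells in anti-LIF held 321 of these UMIs. The Ear genes are close paralogs, and reads may be split among them. The lineage factor genes Gata1 (2 UMIs), Gata2 (3) and Cebpe (3), which act in eosinophil precursors, were near 0 as well. So were proliferation genes, with 38 UMIs over the list of 10 and 3 of Mki67.

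Genes of surface receptors listed for eosinophils were present alongside Ccr3, but at equal depth several were more frequent in another population, as given below. The list of 26 receptor genes had UMIs for 23, and the chemoattractant and mediator receptor genes Ptgdr2, Hrh4 and Cysltr1 were at 0. Csf2rb, the beta chain shared by the receptors for interleukin 3, interleukin 5 and GM-CSF, was found in 49 of 106 cells. The GM-CSF receptor gene Csf2ra was found in 39 and the interleukin 33 receptor gene Il1rl1 in 21. Itgam, which encodes the integrin CD11b, was found in 76, Adgre1, which encodes F4/80, in 48, and the Fc receptor gene Fcgr3 in 38. Itgax, the CD11c gene, was found in only 6.

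To compare populations of unequal depth, each kept cell was thinned to 500 UMIs, and the share with at least 1 UMI was taken over all 113 eosinophil-like cells. Comparison populations were defined by marker UMIs: 1287 neutrophil-like, 375 mast-like, 10807 macrophage-like and 10180 T-like cells. Ccl6 was found in 85.8% of eosinophil-like cells, in 35.1% of macrophage-like, 22.5% of neutrophil-like, 1.9% of mast-like and 0.7% of T-like cells. Ccl9, a related chemokine gene, was in 49.6%, against 34.3% of macrophage-like and 3.0% of neutrophil-like cells. Both are CC chemokines that bind the receptor Ccr1. Syne1, which encodes a nuclear envelope protein, was in 30.1% and in at most 0.9% of each of these 4 populations. Serpinb2, the gene of a plasminogen activator inhibitor, was in 16.8%, and Wnt11, a signalling ligand, in 18.6%. Both were in at most 1.0% elsewhere among the 4.

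Several leading genes were shared with neutrophil-like cells. Retnlg was in 49.6% of eosinophil-like and 21.4% of neutrophil-like cells, and Pglyrp1, an antibacterial granule protein gene, in 40.7% and 23.8%. The transglutaminase gene Tgm2 was in 70.8% and 68.8%, and Thbs1, the gene of thrombospondin, in 76.1% and 70.0%. Cd300lf, a lipid-sensing receptor gene, went the other way, at 29.2% against 36.4%, as did Il1rn, the gene of the interleukin 1 receptor antagonist, at 37.2% against 45.8%. Ncf1, a subunit gene of the NADPH oxidase, was in 27.4% of eosinophil-like and 19.9% of neutrophil-like cells. Adgre1 differed more, at 32.7% against 2.4%, and was in 24.4% of macrophage-like cells. Of the other receptor genes, Csf2rb was in 35.4% of eosinophil-like and 36.0% of neutrophil-like cells, and Csf2ra in 29.2% and 58.3%. Fcgr3 was in 29.2%, against 34.2% of macrophage-like cells, and Il1rl1 in 15.0%, against 65.3% of mast-like cells. Itgam was higher in eosinophil-like cells, at 60.2% against 45.7% of neutrophil-like and 39.5% of macrophage-like cells.

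**Figure D3:**
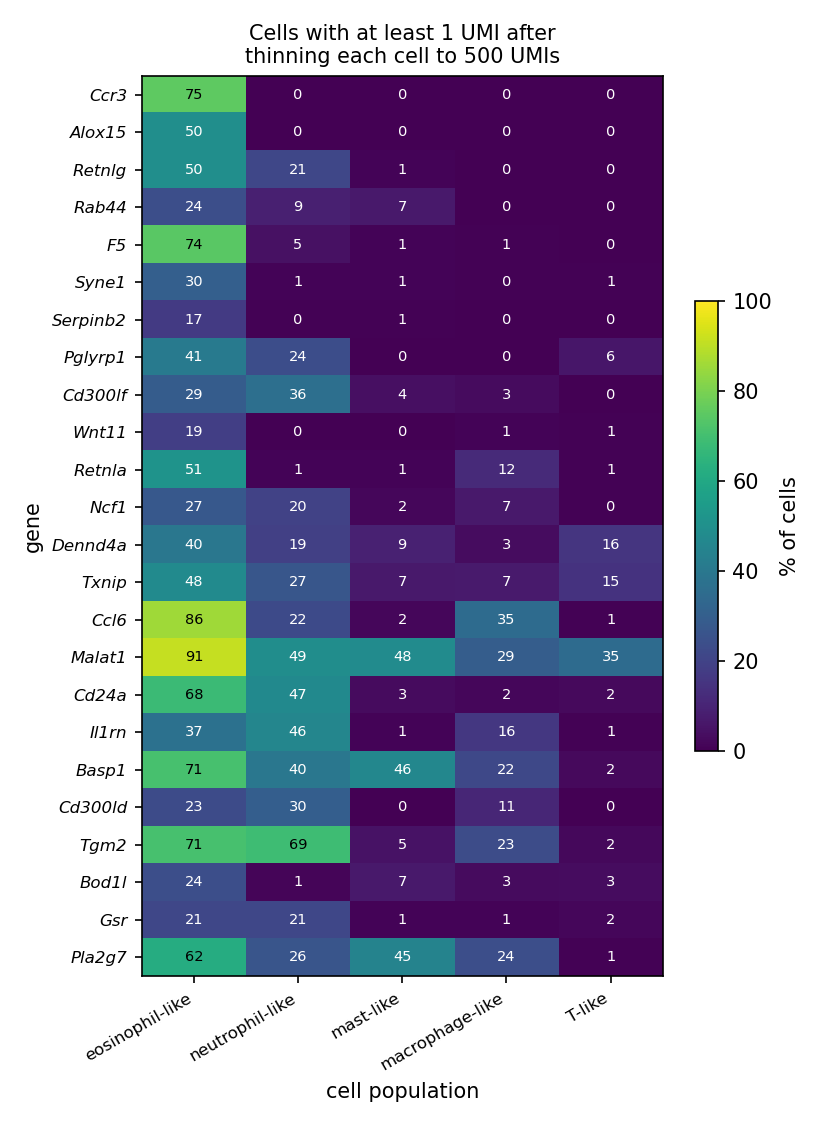
Percent of cells with at least 1 UMI after each cell was thinned to 500 UMIs, for 24 of the 25 leading genes (rows) in 5 populations (columns). Ccr3, Alox15 and F5 helped choose the first column, where Ccl6 reaches 85.8%, while Tgm2 is at 70.8% there and at 68.8% in neutrophil-like cells.

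Most defining markers of the other granulocytes were near 0 in the 106 cells. Of the neutrophil list, 363 of 380 UMIs were Retnlg, with 6 of S100a8, 5 of S100a9, 2 of Cxcr2, 1 of Csf3r and 0 of Ly6g. Of the mast cell list, 17 of 24 UMIs were Hdc, the histamine-forming enzyme gene, and Cpa3 had 2. Of the 7 basophil genes, 4 had 15 UMIs together, with 10 of Il4 and 3 of Gata2, and Mcpt8, Fcer1a and Ms4a2 had 0. Of the monocyte list, 52 of 54 UMIs were Fn1, while Ly6c2, Vcan, F13a1 and Ms4a4c had 0. The 8 macrophage genes had 50 UMIs (618 CPM), with 15 of the 50 in C1qb, against 18894 CPM in macrophage-like cells. The rule limits C1qa, C1qb and C1qc, and macrophage-like cells were chosen by them, so this contrast was set in advance. Of the genes that neither choice used, Apoe was in 8.8% of thinned eosinophil-like and 76.9% of macrophage-like cells. Csf1r was in 4.4% and 33.8%, and Mrc1, Ms4a7 and Trem2 were also in fewer eosinophil-like cells. The list of 9 T and NK cell genes had 1 UMI, with 3 of those genes held at 0 by the rule. Of the 8 eosinophil markers, 6 were used by the rule, so their presence cannot support the label. The other 2, Epx and Ear6, had 0 and 3 UMIs, and the name eosinophil-like stands here for the rule. It does not describe the 7 cells of high RNA, in which markers of other types outnumbered those of eosinophils.

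Fibroblast RNA was an exception. At least 1 UMI of Col1a1 was found in 55 of the 106 cells, and the fibroblast list summed to 2066 CPM in anti-LIF and 5173 CPM in combo. T-like cells with at most 2000 UMIs, which should lack collagen, had Col1a1 in 52.3% of cells in combo, 39.1% in anti-LIF, 33.4% in anti-PD-1 and 21.0% in control. In eosinophil-like cells of at most 2000 UMIs it was in 56.5% in combo and 45.2% in anti-LIF. These T-like cells were deeper, with a median of 1309 UMIs in combo. Thinned to 500 UMIs, Col1a1 was in 47.9% of the 71 eosinophil-like and 28.4% of the T-like cells of combo, and in 35.3% and 24.2% of those of anti-LIF. Col1a2 was in 42.3% and 16.9% in combo and 41.2% and 15.5% in anti-LIF, and Col3a1 in 32.4% and 16.7%, and 26.5% and 16.5%. At equal depth collagen was thus found more often in the eosinophil-like cells of both libraries, large ones included. The part of free RNA or of a second cell in these values was not tested.

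Retnla was spread unevenly over the eosinophil-like cells. This gene, which encodes the resistin-like protein RELM-alpha induced by interleukin 4 and interleukin 13, had 0 UMIs in 48 of the 106 cells, 1 UMI in 7, 2 to 9 in 16 and 10 to 57 in 35. The 10 cells with the most held 42.4% of its UMIs. Cells with 10 or more were 22 of 69 in combo, 12 of 31 in anti-LIF, 1 of 5 in anti-PD-1 and 0 of 1 in control. Retnla was in 4.09% of T-like cells of the same depth range in anti-LIF and 5.75% in combo, far below its 54.8% and 58.0% in eosinophil-like cells of those libraries. After thinning it was in 12.0% of macrophage-like cells. Retnlg was less uneven, with 0 UMIs in 44 cells, 1 in 9, 2 to 9 in 39 and 10 to 17 in 14.

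Of the lipid mediator genes, those leading to leukotriene B4 were found and the enzyme gene of leukotriene C4 was not. Alox5ap, which presents arachidonic acid to 5-lipoxygenase, was found in 67 of 106 cells, and Alox5 itself in 28. Pla2g7, a secreted phospholipase gene, was found in 81. Lta4h, which makes leukotriene B4, had 13 UMIs and was in 7.96% of thinned cells, against 7.94% of T-like cells. Ltc4s and Hpgds, which make leukotriene C4 and prostaglandin D2, had 0 UMIs. After thinning, Alox5ap was in 51.3% of eosinophil-like cells, against 31.3% of neutrophil-like and 29.1% of mast-like cells. Alox5 was in 16.8%, against 7.5% of neutrophil-like and 32.0% of mast-like cells.

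Cytokine RNA was narrow in range. Il1rn was found in 52 cells, Vegfa, the vascular growth factor gene, in 38 and Il1b in 18. The type 2 cytokine genes Il13 and Il5 had 0 UMIs, and Il4 had 10 UMIs in 7 cells. Among chemokines, Ccl6 (526 UMIs), Cxcl2 (191), Ccl9 (155) and Ccl3 (63) had the most UMIs. The list of 20 interferon gamma response genes summed to 1087 CPM in the cells of low RNA. Over eosinophil-like cells of any RNA content it was at 1646 CPM, near the 1615 CPM of mast-like cells. Macrophage-like, neutrophil-like and T-like cells of any RNA content were higher, at 3208, 3549 and 3873 CPM. MHC class I was present, with H2-K1 in 96 cells and H2-D1 in 99. Cd74, the MHC class II chaperone gene, was in 8. After thinning, the MHC gene B2m was in 60.2% of eosinophil-like cells, against 86.8% of neutrophil-like and 97.1% of T-like cells. H2-K1 was in 77.9%, against 64.3% and 94.2%, and H2-D1 in 79.6%, against 88.6% and 90.8%.

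Genes of activated tissue eosinophils were frequent, but several were more frequent in neutrophil-like cells. Thbs1 was found in 87 of 106 cells, Tgm2 in 84, Nfkbia, the NF-kappa-B feedback inhibitor, in 74 and the costimulatory ligand gene Cd80 in 27. Cd274, which encodes PD-L1 and is often listed with them, had 5 UMIs in 5 cells. Cd80 was in 19.5% of thinned eosinophil-like cells, against 9.3% of neutrophil-like and 1.9% of macrophage-like cells. Trib1, a pseudokinase gene needed for eosinophil identity, was in 67 cells, and Cebpb, a myeloid factor gene, in 76. Survival genes included the kinase gene Pim1 (78 cells), Mcl1 (50) and Cish (23), the last a target of STAT5. After thinning, Pim1 (64.6% against 76.8%) and Mcl1 (37.2% against 53.8%) were lower than in neutrophil-like cells, and Cish (15.0% against 2.3%) was higher. Cish was also in 30.7% of mast-like and 12.2% of T-like cells.

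The antibodies' own targets gave little RNA here. Lif, Osmr, Pdcd1, which encodes PD-1, and Pdcd1lg2 had 0 UMIs in the 106 cells. Lifr, the LIF receptor gene, had 1 UMI, and its partner gene Il6st had 6. Stat3, through which LIF signals, had 21 UMIs and Jak1 had 40. At this depth a gene at up to 37.1 CPM could go unseen.

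Gene levels were compared only between combo and anti-LIF, since control and anti-PD-1 had too few cells. A gene with at least 20 UMIs over the pair was counted as past the limit when its summed CPM differed by a log2 ratio of 1 or more. Over cells of any RNA content, 79524 UMIs of 71 combo cells were set against 58910 UMIs of 34 anti-LIF cells. Of 1275 genes, 129 were past the limit higher in combo (10.1%) and 110 lower (8.63%), with a median log2 ratio of 0.07. Over the cells with at most 2000 UMIs, 69 against 31, it was 36 (5.2%) and 37 (5.35%) of 692 genes, with a median of -0.02.

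The lists of eosinophil genes lay near that median in the cells of low RNA. Of 12 receptor genes with enough UMIs, 0 were past the limit either way, with a median log2 ratio of 0.03. The 9 adhesion and homing genes had a median of -0.13 and the 5 MHC genes of -0.12, again with 0 past it. Among 12 genes of activated tissue eosinophils 1 was lower in combo, Bcl2a1b (16 against 15 UMIs), a survival gene with near-identical copies that may share its reads. Among 4 chemokine genes Ccl3 was lower. Of 4 transcription factor genes Bhlhe40 was higher, with 45 against 8 UMIs, but with the large cells included it had 49 against 33. With the large cells included, 2 of 12 receptor genes were past the limit, Csf2rb (59 against 19 UMIs) and Adgre1 (53 against 19), both higher in combo, and the list's median was 0.72. Of all genes, 10.1% were.

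**Figure D4:**
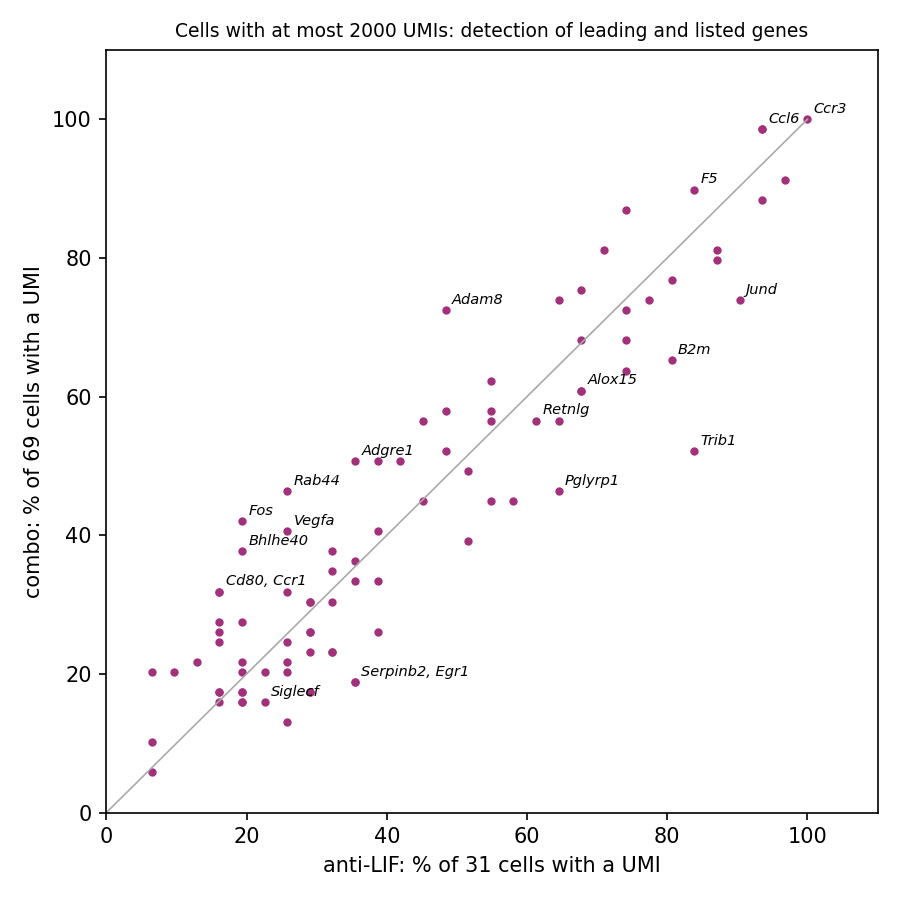
Percent of eosinophil-like cells with at most 2000 UMIs that had a UMI of each leading or listed gene reported here with at least 20 UMIs, in anti-LIF (31 cells, horizontal axis) and combo (69 cells, vertical axis), with the line of equal shares. Ccl6 lies at 93.5% and 98.6% and Retnlg at 61.3% and 56.5%, near the line, while Trib1 at 83.9% and 52.2% and Adam8 at 48.4% and 72.5% lie off it.

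Of the 25 leading genes, Wnt11 differed most between combo and anti-LIF. It had 44 UMIs in 18 of 69 combo cells and 5 UMIs in 5 of 31 anti-LIF cells (log2 ratio 1.85 [0.64, 3.66]). T-like cells of the same depth range had it in 0.876% of anti-LIF and 0.490% of combo cells. Ptpn7, a phosphatase gene of blood cells, had 24 UMIs in combo and 1 in anti-LIF (2.87 [0.80, 8.78]). Slpi, the gene of a protease inhibitor, had 28 and 3 UMIs (1.86 [0.36, 4.42]), but was at -0.23, from 5 and 1 UMIs, where at least 2 UMIs of Ccr3 and of the other rule genes were required. The kinase gene Fer had 20 UMIs in 18 combo cells and 0 in anti-LIF, at least 2.97-fold higher with 3 counts in anti-LIF. Hnrnpdl, an RNA-binding protein gene, gave the same numbers of UMIs, but the large anti-LIF cells held 11 more. Eif1, which acts in choosing the start codon, was found in 60 of 69 and 24 of 31 cells (0.97 [0.46, 1.53]).

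The genes lower in combo included some early response genes, while others were level or higher. Nr4a1, an immediate early gene, had 12 UMIs in combo and 22 in anti-LIF (-2.01 [-3.19, -0.96]). The chemokine gene Ccl3 had 23 and 34 UMIs (-1.72 [-2.56, -0.92]), and 10 of 31 anti-LIF cells held all of the latter. Fosb was at 1843 and 3500 CPM (-0.93 [-1.36, -0.49]), short of the limit, and Egr1 had 25 and 24 UMIs (-1.11 [-1.97, -0.24]). Fos went the other way, with 61 and 16 UMIs (0.73 [-0.05, 1.66]), Junb was at 0.33 and Zfp36 at 0.12, and Jun and Dusp1 were at -0.54 and -0.53. With the large cells included Fos was lower in combo (-1.43). Dgat1, whose product stores triglyceride, had 13 and 23 UMIs (-1.96 [-3.09, -0.95]). The stress gene Ppp1r15a was at -1.16 [-1.99, -0.34], the endoplasmic reticulum gene Serp1 at -1.22 [-2.09, -0.36] and the elongation factor gene Eef2 at -1.94 [-3.43, -0.62]. The ubiquitin ligase gene March7 had 8 and 14 UMIs. Dissociation of tissue is known to induce such early genes, and the 10 genes of the dissociation stress list with enough UMIs had a median of -0.05, with 1 past the limit each way (Hspa1b higher and Egr1 lower). The part of handling in these values was not tested.

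Some of the other differences stood beside like differences in T-like cells or lay in the large cells. Bpifa2 and Smr3a, genes of salivary gland secretions, had 45 and 20 UMIs in the low-RNA cells of combo and 0 in those of anti-LIF, at least 6.69-fold and 2.97-fold higher. T-like cells of at most 2000 UMIs had Bpifa2 in 0.146% of anti-LIF and 32.9% of combo cells, and Smr3a in 19.0% of combo cells and in 0 of 685 anti-LIF cells, which allows up to 0.438%. With the large cells included, Col1a1 was lower in combo (-2.29 [-2.58, -2.02]), and 96.4% of its anti-LIF UMIs lay in the 3 large cells. In the cells of low RNA it was higher (1.40 [0.71, 2.24]). Col1a2, Col3a1, Bgn and Fn1 turned in the same way, from -2.22 to 1.13, -2.51 to 1.03, -3.26 to 0.55 and -1.53 to 0.78. Sparc, a matrix protein gene, was lower both ways, at -1.93 and -1.33, but was at 0.96, from 12 and 1 UMIs, with at least 2 UMIs of Ccr3 and of the other rule genes. T-like cells of at most 2000 UMIs had it in 27.3% of anti-LIF and 32.4% of combo cells, the other direction.

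The remaining genes had the largest differences over cells of any RNA content. There the log2 ratio of Crip1, a LIM domain gene, was -3.78 [-7.20, -2.07], that of Spp1, the osteopontin gene, -1.98 [-2.73, -1.31] and that of the unnamed transcript AI506816 -2.37 [-3.76, -1.29]. In the cells of low RNA these rest on 2 against 8, 9 against 7 and 4 against 3 UMIs, at -2.93, -0.82 and -0.80. Higher there were the heat shock gene Hspa1b (3.20 [1.76, 5.74], from 5 combo cells), the linker histone gene Hist1h1c (3.60 [1.54, 9.51]), the oxidase subunit gene Cyba (2.60 [0.85, 6.03]) and the neutrophil-attracting chemokine gene Cxcl2 (1.35 [0.85, 1.91]). In the cells of low RNA Hspa1b was at 2.92 (42 against 2 UMIs), Cyba at 1.87 (20 against 2) and Cxcl2 at 0.76, and Hist1h1c had 11 against 0 UMIs. With at least 2 UMIs of Ccr3 and of the other rule genes, Spp1 was at 1.36 (5 against 0 UMIs), Cyba at -0.51 (4 against 1) and Cxcl2 at -0.47 (32 against 10), each in the other direction.

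Ligands known to call or feed eosinophils were looked at in all kept cells of each library. Ccl11, the gene of eotaxin 1, was at 98.9 CPM in combo, 80.1 in anti-LIF, 21.0 in anti-PD-1 and 16.9 in control, the order of the eosinophil-like shares. Ccl24, the gene of eotaxin 2, was at 40.4, 27.6, 13.7 and 0.193 CPM in that order, and in combo 63.3% of its UMIs lay in macrophage-like cells. Its UMIs were concentrated: 10 cells held 23.0% of them in combo, 31.1% in anti-LIF and 59.4% in anti-PD-1. In control it had 20 UMIs in 6 cells. Ccl7, another ligand of Ccr3, was in the same order, between 585 CPM in combo and 108 CPM in control, and so was its relative Ccl8, between 581 and 54.9 CPM. Ccl5, a ligand of Ccr3 that T cells make, was not, with 395 CPM in control and 150 to 229 CPM in the others.

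Of the cytokines, Il5 and Il4 were in the same order, and Il13, Il33, Tslp and Csf2 were not. From combo to control, Il5 had 103, 58, 27 and 36 UMIs (1.15, 1.08, 0.419 and 0.348 CPM), and in combo 10 cells held 87.4% of them. Il4 had 147, 30, 27 and 24 UMIs (1.64, 0.556, 0.419 and 0.232 CPM), and in combo 43.5% of them lay in mast-like cells. Il13 was at 1.46, 1.19, 0.870 and 1.05 CPM, and Tslp, an alarmin gene, at 8.32, 7.45, 2.80 and 4.61 CPM. Il33, also an alarmin gene, was at 102, 114, 62.4 and 64.7 CPM. Csf2, which encodes GM-CSF, was at 2.84, 3.65, 2.44 and 3.72 CPM. The eosinophil-like cells themselves gave 0 UMIs of Ccl11 and 1 of Ccl24. Within macrophage-like cells Ccl24 was at 118, 69.02, 37.2 and 0.396 CPM and Ccl8 at 2256, 1812, 1504 and 1097 CPM, the same order. The control value of Ccl24 there was 1 UMI. Ccl7 in macrophage-like cells, at 1166.04, 1164.06, 696 and 524 CPM, kept the order too. In mast-like cells Ccl7 did not, at 6840, 8045, 7378 and 8341 CPM. Nor did Il4 in mast-like cells (120, 65.2, 22.5 and 34.0 CPM) or Il5 in T-like cells (8.43, 12.4, 3.90 and 1.18 CPM). With 4 libraries no relation between ligands and shares was computed, and the mix of other cell types differed between libraries too, with 491 macrophage-like cells in control and 3721 in combo.

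**Figure D5:**
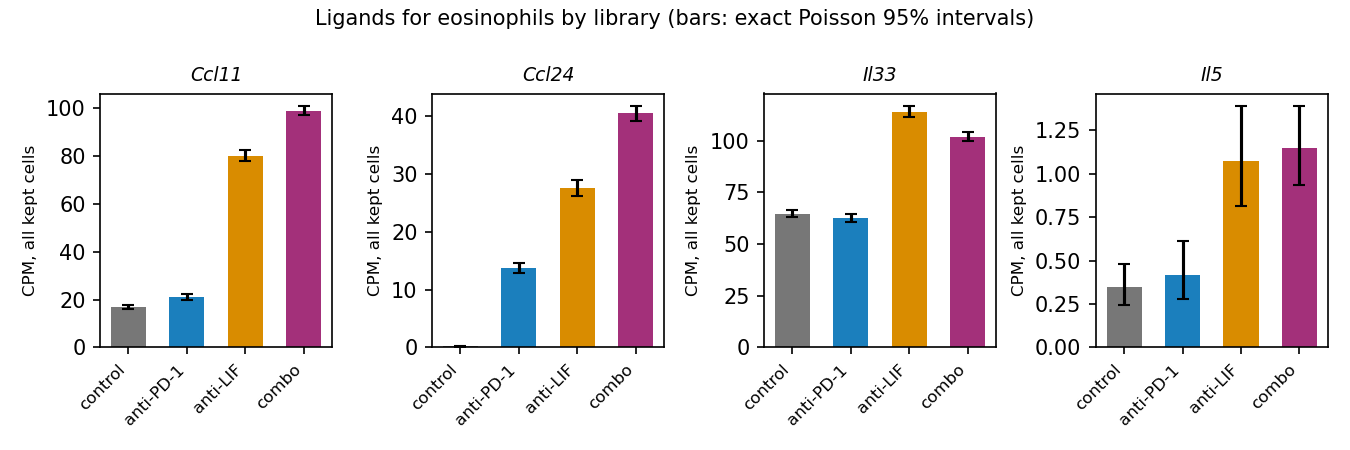
Levels of 4 ligand genes over all kept cells (CPM, vertical axes, each from 0) in the 4 libraries, with exact Poisson 95% intervals for counting error. Ccl11 and Ccl24 are lowest in control and highest in combo, while Il33 is highest in anti-LIF at 114 CPM and Il5 stays at or below 1.15 CPM.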

How the data were processed

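Per the labels' protocols, single cells went through the SeekOne MM kit for 3' ends, and reads came from an Illumina or a DNBSEQ instrument, with no record of which library ran on which. The deposited matrices hold whole-number UMI counts per gene and barcode, per the file headers, with no normalization. The other deposited lists give barcodes and the identifiers and symbols of 32285 genes. The submitters' processing notes name mm10 and Seurat 4.0.3 without a role. Aligner, counter and cell calling are not given in the sources used here.

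A barcode was kept if it had 200 or more genes and a mitochondrial share of 20% or less, and no doublet caller was run. Kept libraries held 18640, 14392, 14014 and 16397 cells. Neutrophil-like cells had at least 5 UMIs of S100a8 and S100a9 and 1 of Csf3r and Cxcr2, mast-like cells 5 of Cpa3, macrophage-like cells 5 of C1q and T-like cells 2 of Cd3. Counts were summed over cells and given as CPM, with 0.5 counts added for log2 ratios. Shares carry Clopper-Pearson, ratios exact conditional and levels Poisson intervals (scipy 1.17.1, numpy 2.4.6). Only the ratio intervals were checked on simulated data, drawn as the Poisson counts that these intervals assume. All of these intervals cover counting error only. Thinned values come from 1 random draw.

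Leading genes were the 25 with the highest ratio to all other kept cells, with at least 50 UMIs and in 10% of members. In combo against anti-LIF, the 10 genes each way whose interval lay farthest from 0 were named, with at least 20 UMIs and in at least 5 cells of the higher library. Of the 18 gene lists, genes with at least 20 UMIs are named, and others where their low level is the point. The eosinophil-like cells and the lists were chosen with earlier results of these data known. Some genes that these rules name are not reported here. Of 264 listed genes, 1 (Mx1) was not analysed here. Alternatives covered cell filters, stricter marker limits, the denominator, scaling, added counts and the exclusion of cells with other types' markers. The limit of 2000 UMIs, the control minimum and leaving out each library at the edge of the rule were added after the data were seen.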

Additional observations from a re-analysis of the deposited data

How the results depend on the processing

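No paired analysis was possible because each group is 1 library. The order of shares, combo above anti-LIF above anti-PD-1 above control, was the same in every alternative run, but the size of the shares moved. With at least 500 genes per barcode the shares were 0.214% in combo (29 cells) and 0.144% in anti-LIF (16 cells). With Ccr3 at 2 UMIs or more they were 0.140%, 0.0428%, 0.0139% in anti-PD-1 and 0% in control, and combo was above anti-LIF by a log2 ratio of 1.71 in place of 0.84. Thinned to 500 UMIs they were 0.323% in combo and 0.164% in anti-LIF. With Ptprc-positive cells as the denominator they were 0.857% (44 cells) and 0.586% (25 cells). Without cells that carried other types' markers they were 0.183% (30 cells) and 0.128% (18 cells). In both of these settings, and with at least 500 genes, combo was above anti-LIF by less than the main 1.78-fold. No interval is given here for these smaller differences. In combo alone the share was 0.557% with a mitochondrial limit of 10%, 0.335% with C1q at 0, and 0.335% with the control minimum of UMIs. Genes past the limit in combo against anti-LIF were 33 higher (7.1%) and 38 lower (8.17%) of the 465 with at least 50 UMIs. In cells with at most 2000 UMIs, where fewer genes were measured, they were 36 (5.2%) and 37 (5.35%) of 692. The main setting gave 129 (10.1%) and 110 (8.63%) of 1275 genes.

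Some log2 ratios of combo against anti-LIF changed sign. With Ccr3 and the other marker genes at 2 UMIs or more (21 combo and 6 anti-LIF cells) they were 1.07 for Bgn, 1.50 for Col1a1, 1.13 for Col1a2, 2.54 for Col3a1, 2.66 for Fn1, 0.96 for Sparc, 1.36 for Spp1, -0.47 for Cxcl2, -0.51 for Cyba and -0.23 for Slpi. Without cells carrying other types' markers (30 and 18 cells) they were 2.40 for Bgn, 0.33 for Col1a1 and 0.82 for Fn1. As a mean over cells Col1a2 was at 0.047. In cells with at most 2000 UMIs they were 0.55 for Bgn, 1.40 for Col1a1, 1.13 for Col1a2, 1.03 for Col3a1 and 0.78 for Fn1, and the construction of that alternative removes the large cells that held these UMIs. For the other settings the cause was not tested. Of 30 named genes, 30 kept their side with 1 count added and with median scaling. The other settings moved more of them. With Ccr3 and the other marker genes at 2 UMIs or more, 9 were the same and 10 changed sign. The other 11 shifted without changing sign. In that sequence the numbers were 18, 5 and 7 in cells with at most 2000 UMIs. Without cells carrying other types' markers they were 20, 3 and 7, and as a mean over cells 21, 1 and 8. Depth limits all gene values, since the cells of low RNA held a median of 693.5 UMIs, and many named genes rest on fewer than 50 UMIs.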
